A study of Macaca fascicularis with 20 samples.

Results

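The genes of tissue retention examined were 7 in number: RGS1, RGS2, CD69, CRTAM, ITGA1, CD9 and CD101. They were taken as the probes whose transcript accession, without its version, maps to these symbols in the RefSeq annotation of Macaca fascicularis. Each of the 7 genes had 1 probe, among 12530 genes that could be named on the array. The study sorted natural killer (NK) cells from cryopreserved, unstimulated spleen of the cynomolgus macaque by surface CD27 and CD11b, a pair of markers used to stage NK maturation. RNA was amplified and hybridised to 1-colour custom Agilent arrays, 20 in all.

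All NK groups were NKG2A+CD8a+ cells from a live CD45+ gate that was negative for CD3, CD14, CD20 and HLA-DR. They comprised CD27loCD11b+ cells (CD11b single positives, 5 arrays), CD27+CD11b+ cells (double positives, 5 arrays), CD27loCD11blo cells (double-low cells, 4 arrays) and CD27+CD11blo cells (CD27 single positives, 4 arrays). The B cells (2 arrays) were NKG2A-CD8a- and HLA-DR+CD20+. No group was treated. The labels give origin, sex and age but no animal identifier, so a shared label was not taken as proof of a shared animal. Replicate 1 of every NK subset was labelled Cambodia, male, 4 years, and replicate 2 Vietnam, male, age unknown. Replicate 3 came from Vietnam males labelled 11 years in CD11b single positives, 12 in double positives, 9 in double-low cells and 10 in CD27 single positives. A Singapore female label of 18 years stood on 1 array of each NK subset and on B cell replicate 2. A Singapore male label of 5 years stood on replicate 4 of both CD11b+ subsets, and B cell replicate 1 was labelled Singapore, female, 5 years.

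Lymphocytes leave tissue along sphingosine-1-phosphate gradients sensed by G-protein coupled receptors, and retained cells blunt or replace that response. CD69 binds the receptor S1PR1 and removes it from the surface, while RGS1 and RGS2 are GTPase-activating proteins that shorten signalling by heterotrimeric G proteins. CRTAM is an adhesion receptor of activated NK and CD8 T cells that binds CADM1, and ITGA1 is the alpha subunit of a collagen-binding integrin that marks liver-resident NK cells in mouse. CD9 is a tetraspanin found on decidual NK cells in human, and CD101 is an immunoglobulin superfamily membrane protein carried by tissue-resident T cells.

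Levels are given as log2 signal relative to the array's own 75th percentile, so 0 is the signal of that percentile. Levels of different probes were not set against each other. The 75th percentile itself lay between 180 and 1897 raw units (median 1280), lowest on double-positive replicate 4 and double-low replicate 4. Between 67.9% and 96.0% of probes per array were well above background. The probes of 6 of the 7 genes were well above background on all 20 arrays, CD9 on 15, and none was saturated. The summed level of 8 cytotoxic granule genes was 36.0 to 235 times the 75th percentile on NK arrays, against 1.64 to 2.18 on B cell arrays. Summed B cell markers ran the other way, 1.61 to 9.84 on NK arrays and 52.1 to 56.8 on B cell arrays. CD27 mRNA averaged 3.17 ± 0.45 in CD11b single positives and 3.85 ± 0.24 in double positives (SD, 5 arrays each), with 3.27 ± 1.13 in double-low cells and 4.32 ± 0.56 in CD27 single positives (4 arrays each). In sorted bulk samples, fewer cells with a transcript and less transcript per cell cannot be told apart.

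Between the ends of the CD27 and CD11b axes, RGS1, RGS2 and CRTAM were lower in CD11b single positives on every array than on any array of CD27 single positives. The differences were 3.71-fold, 6.95-fold and 5.97-fold. None passed the test across all genes, limma with Benjamini-Hochberg adjustment at 0.05, which called 0 of 12176 genes (0.00%) in this comparison. CD69 was also lower on average but its arrays overlapped, and ITGA1, CD9 and CD101 differed by less than their standard errors.

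**Figure D1:**
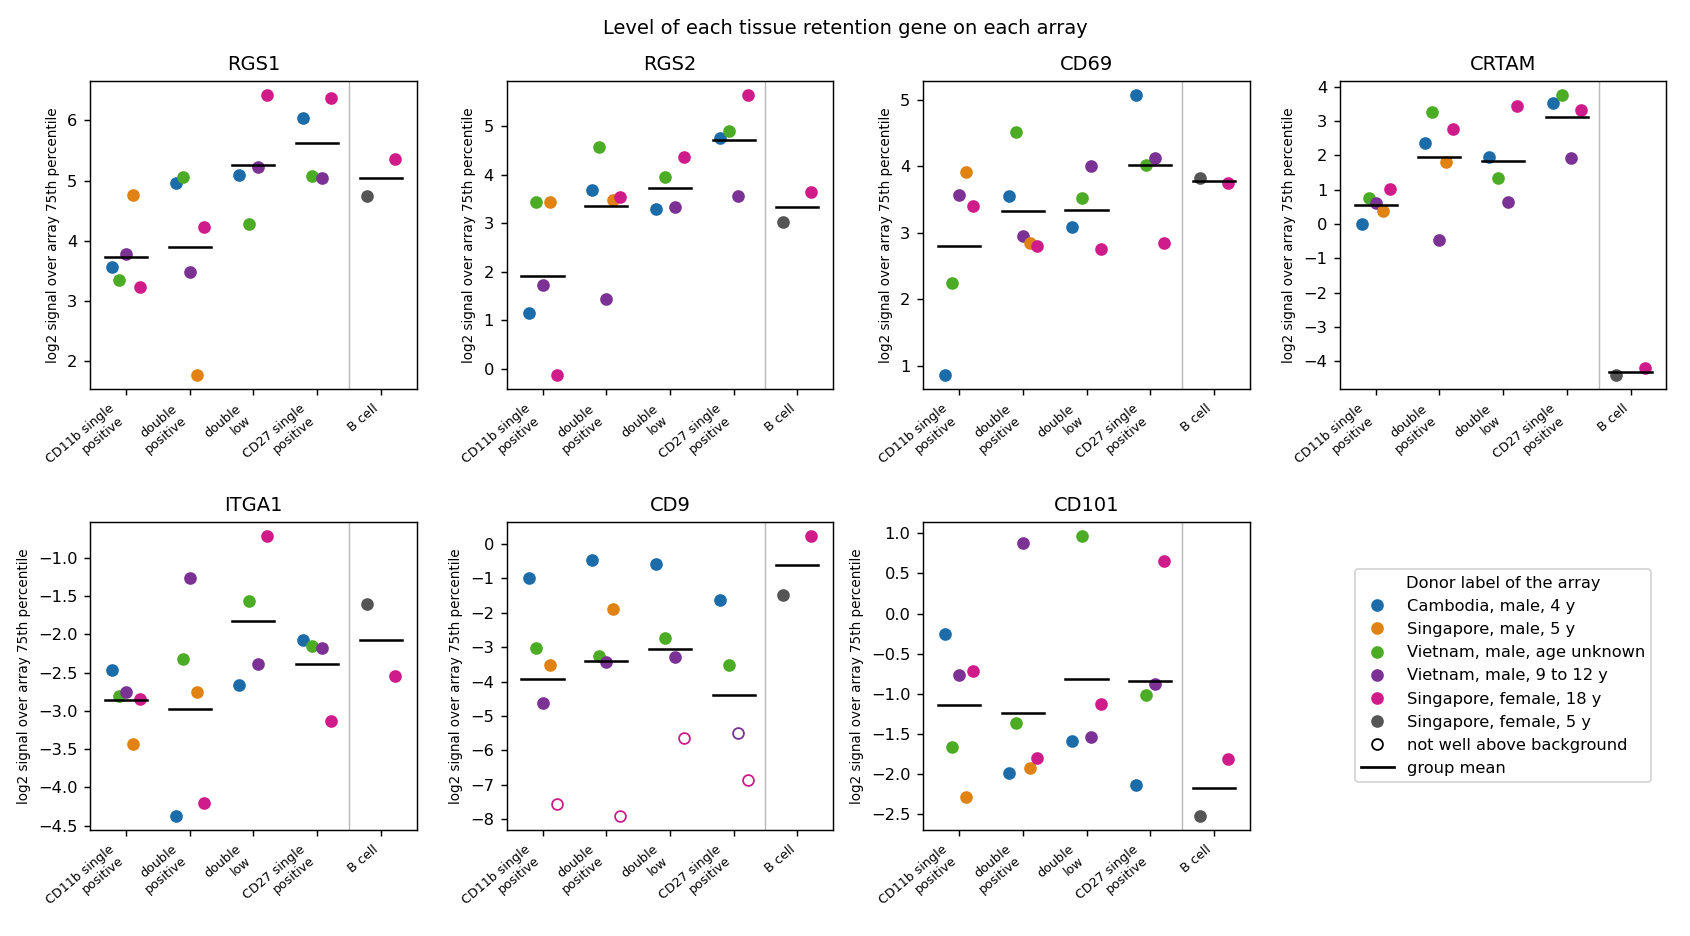
Each panel shows 1 gene, with log2 signal over the array's 75th percentile on the vertical axis, 1 point per array coloured by donor label, a bar at the group mean and open points for probes not well above background. RGS1, RGS2 and CRTAM have their lowest NK mean in CD11b single positives and their highest in CD27 single positives, CRTAM falls below -4 only in B cells, and the CD9 points of the 18-year-old female label are open in all 4 NK subsets.

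RGS1 stood at 3.56, 3.35, 3.78, 4.77 and 3.24 in CD11b single positives and at 4.97, 5.06, 3.49, 1.77 and 4.24 in double positives. It stood at 5.10, 4.29, 5.23 and 6.42 in double-low cells, at 6.04, 5.08, 5.04 and 6.37 in CD27 single positives, and at 4.74 and 5.36 in B cells. The highest CD11b single positive array thus lay below the lowest CD27 single positive array, while double positives spanned the widest range. By mean, CD27 single positives came first (5.63 ± 0.68), then double-low cells (5.26 ± 0.88), B cells (5.05 ± 0.44), double positives (3.90 ± 1.35) and CD11b single positives (3.74 ± 0.61). Neighbours in that order overlapped in every case. CD11b single positives minus CD27 single positives gave a log2 difference of -1.89 ± 0.59 (SE; limma, unadjusted p = 0.0048, adjusted p = 0.812). Double positives were lower than CD27 single positives by a similar amount, -1.73 ± 0.59 (limma, adjusted p = 0.9999), and this value was -1.20 ± 0.43 without the pair of dimmest arrays. The RGS1 level of 1.77 belongs to double-positive replicate 4, the dimmest array.

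RGS2 stood at 1.15, 3.44, 1.73, 3.44 and -0.13 in CD11b single positives and at 3.70, 4.58, 1.45, 3.49 and 3.55 in double positives. It stood at 3.30, 3.95, 3.33 and 4.37 in double-low cells, at 4.77, 4.91, 3.57 and 5.65 in CD27 single positives, and at 3.02 and 3.64 in B cells. By mean, CD27 single positives came first (4.72 ± 0.86), then double-low cells (3.74 ± 0.52), double positives (3.35 ± 1.15), B cells (3.33 ± 0.44) and CD11b single positives (1.93 ± 1.54). Neighbouring groups overlapped. RGS2 had the lowest p of the 7 genes between CD11b and CD27 single positives, -2.80 ± 0.70 (limma, unadjusted p = 7.72e-04, adjusted p = 0.755), and stood 12th of the 12176 genes by p. Its difference between CD11b single positives and double positives was -1.43 ± 0.66 (limma, unadjusted p = 0.0426, adjusted p = 0.782), with overlapping arrays.

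CRTAM stood at -0.01, 0.77, 0.61, 0.39 and 1.01 in CD11b single positives and at 2.36, 3.27, -0.48, 1.80 and 2.76 in double positives. It stood at 1.96, 1.34, 0.63 and 3.44 in double-low cells and at 3.53, 3.76, 1.92 and 3.32 in CD27 single positives. CD11b single positives were the tightest NK group for this gene, and all lay below 4 of the 5 double-positive arrays. CD11b single positives minus CD27 single positives gave -2.58 ± 0.66 (limma, unadjusted p = 9.63e-04, adjusted p = 0.812), and minus double positives -1.39 ± 0.62 (unadjusted p = 0.0376, adjusted p = 0.782). The order of means was CD27 single positives (3.13 ± 0.83), double positives (1.94 ± 1.45), double-low cells (1.84 ± 1.20) and CD11b single positives (0.55 ± 0.39), and neighbours overlapped.

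The level of CD69 was 0.85, 2.24, 3.58, 3.92 and 3.41 in CD11b single positives and 3.55, 4.53, 2.96, 2.84 and 2.80 in double positives. It was 3.08, 3.52, 4.00 and 2.75 in double-low cells, 5.08, 4.03, 4.13 and 2.85 in CD27 single positives, and 3.82 and 3.76 in B cells. Both low values in CD11b single positives were replicates 1 and 2, and the other arrays of that subset lay within the range of CD27 single positives. The difference between these subsets was -1.22 ± 0.58 (limma, unadjusted p = 0.0495, adjusted p = 0.812). On the slide that held replicates 1 and 2 it was -3.005 ± 0.59, and on the slide with the replicate 3 arrays it was 0.09 ± 0.86, where CD11b single positives had 1 array. Of the 7 genes CD69 followed the array's overall signal most closely, with r = 0.48 over the 18 NK arrays, against 0.29 for RGS1, 0.13 for RGS2 and -0.01 for CRTAM. The part of array signal in the CD69 values was not tested.

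For RGS1, RGS2 and CRTAM every CD11b single positive array lay below every CD27 single positive array, so the sign within a slide was fixed. The difference between these subsets was read only for its size, within both slides that carried them. It was -2.10 ± 0.42 for RGS1, -2.54 ± 0.70 for RGS2 and -3.26 ± 0.48 for CRTAM on the first slide (limma within the slide, adjusted p = 0.216, 0.265 and 0.197). On the second slide, with 1 CD11b single positive array, it was -1.93 ± 0.86, -2.88 ± 1.06 and -2.01 ± 1.37. The third slide carried only CD11b single positives and double positives.

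The 7 genes, chosen with earlier results of these data known, can be counted beside all genes as a description. Of the 7 genes, 3 had all CD11b single positive arrays below all CD27 single positive arrays, whereas 146 of 12176 genes (1.20%) did so. The 7 genes had a median difference of -1.22, or -0.85 with CRTAM left out, against 0.19 over all genes. In double positives minus CD27 single positives the medians were -0.69 with CRTAM, -0.64 without it and -0.09 over all genes, with 6 of the 7 genes negative. In double-low cells minus CD27 single positives they were -0.37, -0.18 and 0.45, with 4 of 7 negative.

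In CD11b single positives minus double-low cells all 7 genes were negative, with medians of -1.03 with CRTAM and -0.96 without it, against -0.20 over all genes. RGS1 differed there by -1.52 ± 0.59 and RGS2 by -1.81 ± 0.70 (limma, adjusted p = 0.945 for both), with overlapping arrays. In CD11b single positives minus double positives the medians were -0.53, -0.35 and 0.27, with 5 of 7 negative. In double positives minus double-low cells they were -0.39, -0.40 and -0.47, so the members' median was close to that of all genes. RGS1 differed there by -1.36 ± 0.59, a value that became -0.44 without the 2 dimmest arrays and 0.32 ± 0.42 within the first slide. None of the 7 genes had separated groups in the 5 pairs other than CD11b and CD27 single positives, and limma called 0 of 12176 genes (0.00%) in each. Over all genes, groups were separated for 0.616% in double positives and 20.6% in double-low cells against CD27 single positives. The share was 0.304% in CD11b single positives against double positives, 1.82% in CD11b single positives against double-low cells and 6.99% in double positives against double-low cells. At an unadjusted p under 0.05 the counts over all genes were 642 for CD11b single positives and 297 for double positives against CD27 single positives, and 1563 for double-low cells against CD27 single positives. They were 723 for CD11b single positives against double positives, 438 for CD11b single positives against double-low cells and 2560 for double positives against double-low cells.

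**Figure D2:**
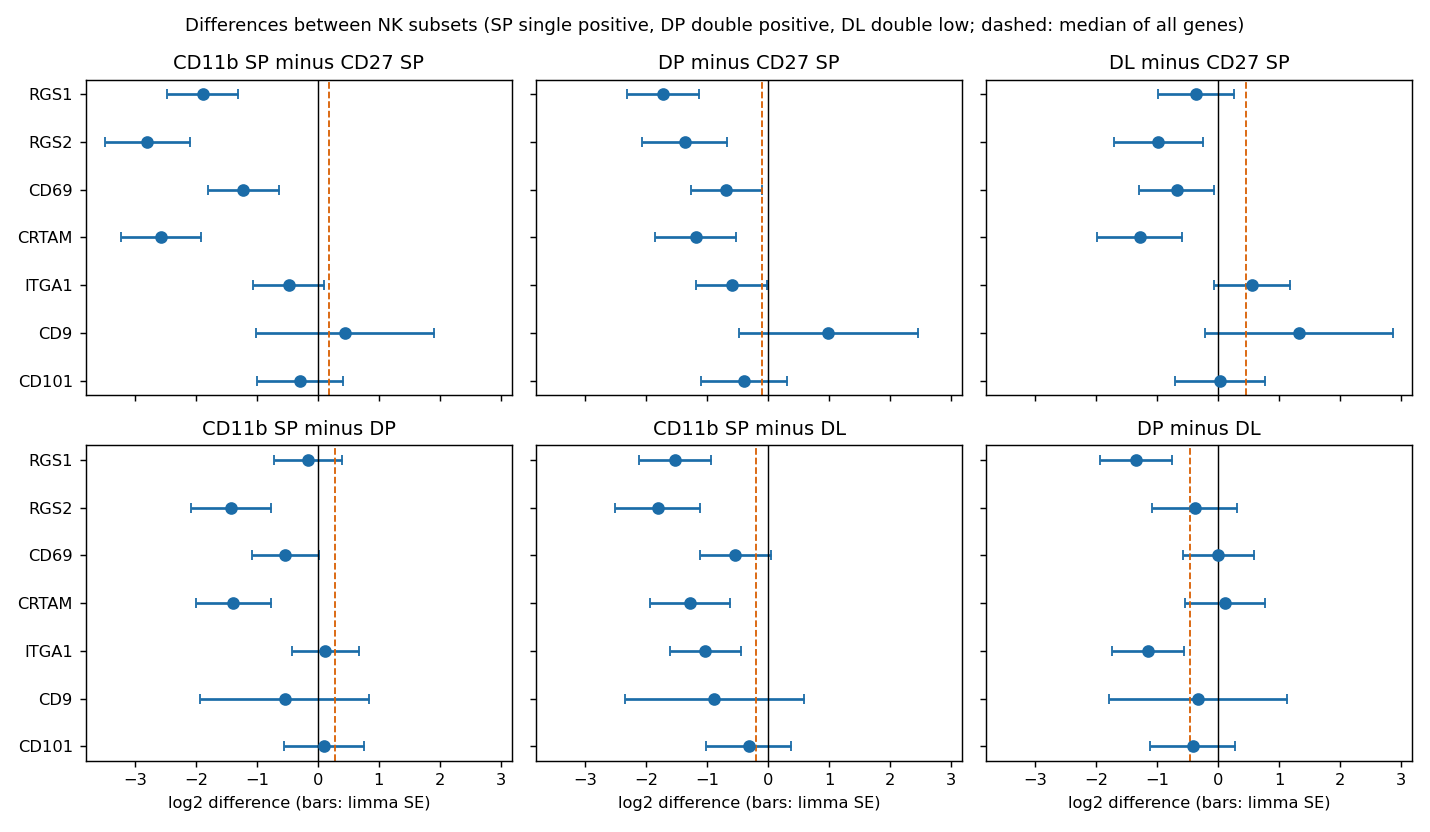
Points are log2 differences between 2 NK subsets for the 7 genes with limma standard errors as bars, and the dashed line is the median of all 12176 genes. RGS1, RGS2 and CRTAM lie furthest below the line in CD11b single positives minus CD27 single positives, and CD9 has the widest bars in every panel.

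Over the 4 subsets at once, the F test gave unadjusted p = 0.00897 for RGS1, 0.00628 for RGS2 and 0.00897 for CRTAM (limma, adjusted p = 0.558 for each). It gave 0.254 for CD69, 0.228 for ITGA1, 0.827 for CD9 and 0.908 for CD101. The F test called 0 of 12176 genes (0.00%), with 1069 at an unadjusted p under 0.05. The interaction of CD27 and CD11b had adjusted p = 0.9997 for every one of the 7 genes, and limma called 0 genes (0.00%), with 175 at an unadjusted p under 0.05.

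Arrays that share a donor label allow the subsets to be set side by side within a label. In the 18-year-old female label both CD11b+ subsets lay on slide 3, and CD27 single positives and double-low cells on slide 2. Between those slides, subset and slide cannot be told apart in this label. In the 3 labels with both subsets, CD11b single positives minus CD27 single positives ran from -3.13 to -1.73 for RGS1, from -5.78 to -1.47 for RGS2 and from -3.53 to -2.31 for CRTAM. The negative sign was fixed in advance, as the arrays of these subsets did not overlap for these genes, so only the size is informative. The values of -3.13 and -5.78 came from the 18-year-old female label. CRTAM was also lower in CD11b single positives than in double positives in 4 of 4 labels, with differences of -2.50 to -1.42. That sign was fixed too, as every CD11b single positive array lay below the double-positive arrays of these labels. The replicate 3 arrays, labelled 9, 10, 11 and 12 years in the 4 subsets, share no label and were not counted. Whether they are 1 animal was not tested, and there CRTAM stood at 0.61 in CD11b single positives and -0.48 in double positives. CD69 was lower in 2 of 3 labels, and the values ran between -4.22 and 0.55. With the donor label as a fixed term over 14 arrays, the difference was -1.90 ± 0.78 for RGS1, -3.32 ± 0.72 for RGS2 and -2.85 ± 0.52 for CRTAM (limma, adjusted p = 0.629, 0.424 and 0.269).

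**Figure D3:**
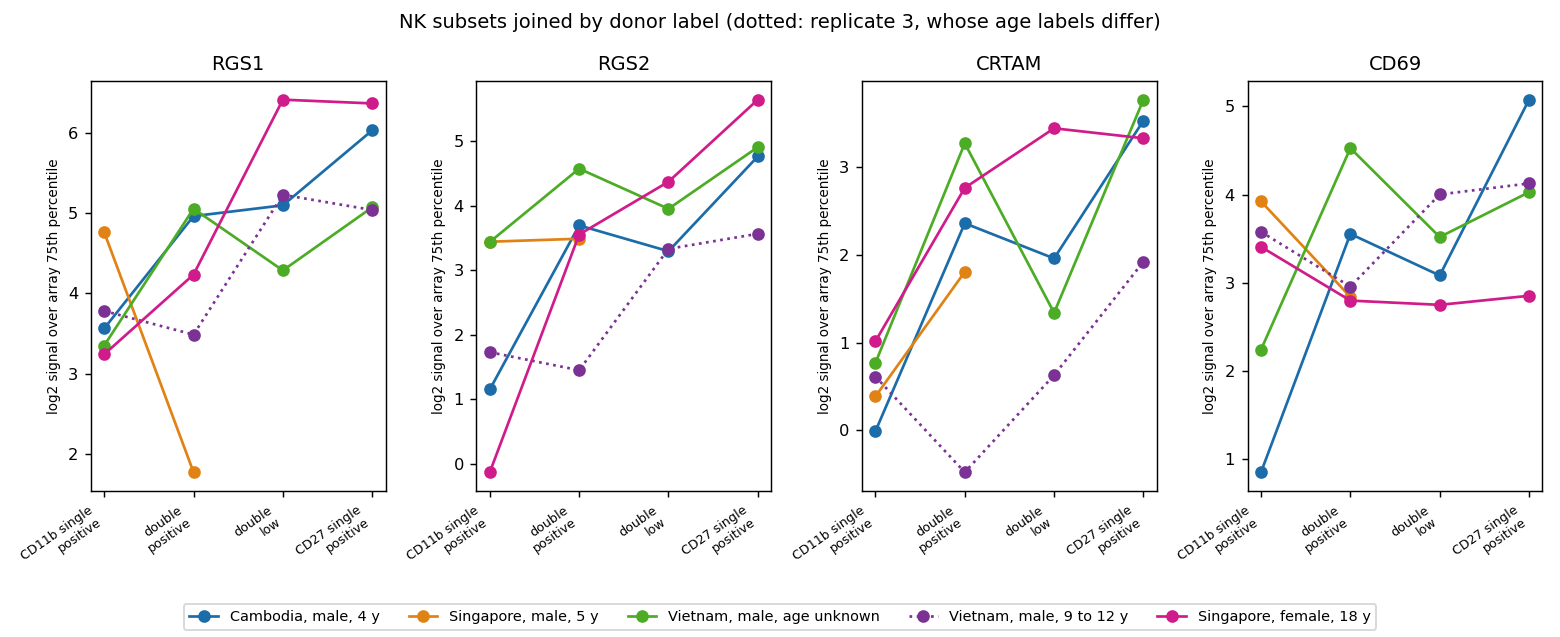
Lines join NK subsets whose arrays carry the same label of origin, sex and age, with log2 signal over the array's 75th percentile on the vertical axis and dotted lines for replicate 3, whose age labels differ. RGS1, RGS2 and CRTAM are lower in CD11b single positives than in CD27 single positives in all 3 labels that hold both. The lack of overlap between these subsets fixed that direction in advance. CD69 is lower in 2 of the 3 labels.

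RGS1 and RGS2 lie close together in the RefSeq annotation, with RGS13 the only protein-coding gene between them. Their levels went together over the 18 NK arrays (Pearson r = 0.64), and RGS2 and CRTAM more so (r = 0.77), with r = 0.61 for RGS1 and CRTAM. CD69 had r = 0.41 with RGS1, 0.38 with RGS2 and 0.40 with CRTAM. These arrays share slides, labels and scaling, so the coefficients are a description. ITGA1 and CD101 had r = 0.46 with each other, and the other pairs lay between -0.29 and 0.16.

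Among the other 12175 genes the closest to RGS1 included HIVEP1 (r = 0.93) and EDEM1 (0.88). Those closest to RGS2 were LOC102118724 (0.90), PRMT9 (0.89) and SMARCA5 (0.88). Those closest to CRTAM included SLC25A3 (0.88) and DUSP5 (0.86), and CD69 was closest to HSPA8 (0.86), SEC31A (0.83) and CCNL1 (0.83). ITGA1 was closest to WDR31 (0.85), GRSF1 (0.83) and P4HTM (0.83). CD9 was closest to SLC39A14 (0.86), HSD17B6 (0.82) and USP35 (0.82), and CD101 to OPRD1 (0.79), CLTCL1 (0.77) and KDF1 (0.76).

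CRTAM separated NK cells from B cells. Its 18 NK arrays lay between -0.48 and 3.76, whereas the 2 B cell arrays stood at -4.42 and -4.20. NK minus B cells, with the 4 subsets weighted equally, gave 6.18 ± 0.71 (limma, adjusted p = 3.04e-05), a 72.4-fold difference, and all 18 NK arrays were above both B cell arrays. CRTAM was the only one of the 7 genes called, against 362 of 12372 genes (2.93%), of which 213 (1.72%) were higher and 149 lower in NK cells. Over all genes, 7.43% had every NK array above both B cell arrays. On the slide that carried both B cell arrays the CRTAM difference was 5.51 ± 0.83 (limma, adjusted p = 0.0375), in a fit that called 2019 of 12129 genes (16.6%). Both B cell arrays came from Singapore females and lay on 1 slide.

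With CRTAM left out, none of the other 6 genes passed the test between NK and B cells. RGS1 (-0.42 ± 0.64), RGS2 (0.10 ± 0.75), CD69 (-0.42 ± 0.63) and ITGA1 (-0.44 ± 0.64) had differences below their standard errors (limma, adjusted p between 0.657 and 0.934). CD101 differed by 1.16 ± 0.76 and CD9 by -3.07 ± 1.59 (adjusted p = 0.340 and 0.253). Within the shared slide CD101 differed by 1.84 ± 0.52 (limma, adjusted p = 0.0587). CD9 was not well above background on 5 of the 18 NK arrays, so its difference rests in part on measured levels too faint to be exact. The median of the 7 genes was -0.42, and -0.42 again with CRTAM left out, against 0.36 over all genes.

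Within each NK subset, CD9 was highest with the same donor label. It stood at -0.98, -3.01, -4.62, -3.52 and -7.56 in CD11b single positives and at -0.48, -3.25, -3.44, -1.89 and -7.91 in double positives. It stood at -0.59, -2.72, -3.28 and -5.63 in double-low cells, at -1.63, -3.51, -5.51 and -6.87 in CD27 single positives, and at -1.49 and 0.24 in B cells. The highest array of each NK subset was the one labelled Cambodia, male, 4 years. The arrays labelled Singapore, female, 18 years were not well above background in any NK subset, and neither was CD27 single positive replicate 3. CD9 was well above background on 13 of the 18 NK arrays, namely 4 of 5 CD11b single positives, 4 of 5 double positives, 3 of 4 double-low cells and 2 of 4 CD27 single positives.

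By label, the 4 arrays of the 18-year-old female label averaged -6.99 ± 1.004 (SD) and none was well above background. The mean was -0.92 ± 0.52 over 4 arrays of the 4-year-old male label, -3.12 ± 0.34 over 4 arrays of the male label of unknown age, and -2.70 over 2 arrays of the 5-year-old male label. Arrays not well above background give only a bound, set by the faintest well measured probes on each array. Against that bound CD9 was at least 18.7-fold higher in the 4-year-old label, 5.44-fold in the 5-year-old male label and 4.06-fold in the label of unknown age. The B cell array of the same 18-year-old label was at least 41.8-fold above those NK arrays. The cause of these differences was not tested.

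The test of the donor label was chosen after these values were seen, so it describes the pattern and gives it no independent support. It used the 14 NK arrays whose label stands on 2 or more NK arrays, with subset in the model. The 4 arrays of the 18-year-old female label entered it at their measured levels of -7.91 to -5.63, below their bound of -5.14. Its p-value and rank for CD9 therefore rest in part on values not well above background. CD9 had adjusted p = 0.00398 (limma F test), 4th by p among 12044 genes, of which 60 were called (0.498%). That count was 9 without CD27 single positive replicate 4 and 1046 without CD11b single positive replicate 4, the ends of the range over single arrays left out. With normexp background correction it was 160, with CD9 in rank 127 (adjusted p = 0.0342). The other 6 genes had adjusted p between 0.782 and 0.984. Leaving out the label of the 18-year-old female gave adjusted p = 0.259, and leaving out the 4-year-old male label gave 0.335. Leaving out any 1 of the 14 arrays kept the call, with adjusted p up to 0.0333. The 4-year-old male label and the male label of unknown age lay on the same slide, and their CD9 ranges, -1.63 to -0.48 and -3.51 to -2.72, did not overlap. Origin, sex and age change together between these labels and cannot be told apart. CD9 is abundant on platelets, so 6 platelet genes were read by label. Their summed level was 5.24 to 10.5 times the 75th percentile in the 18-year-old female label, against 6.45 to 15.8 in the 4-year-old male label. Only ITGA2B lay above the 75th percentile (log2 2.25 to 3.15 and 2.43 to 3.83), so it carried most of each sum. TUBB1 ran the other way, -3.82 to -1.22 against -5.12 to -2.22, and the ranges of both labels overlapped for each of the 6 genes. The part of platelet RNA in the CD9 values was not tested.

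**Figure D4:**
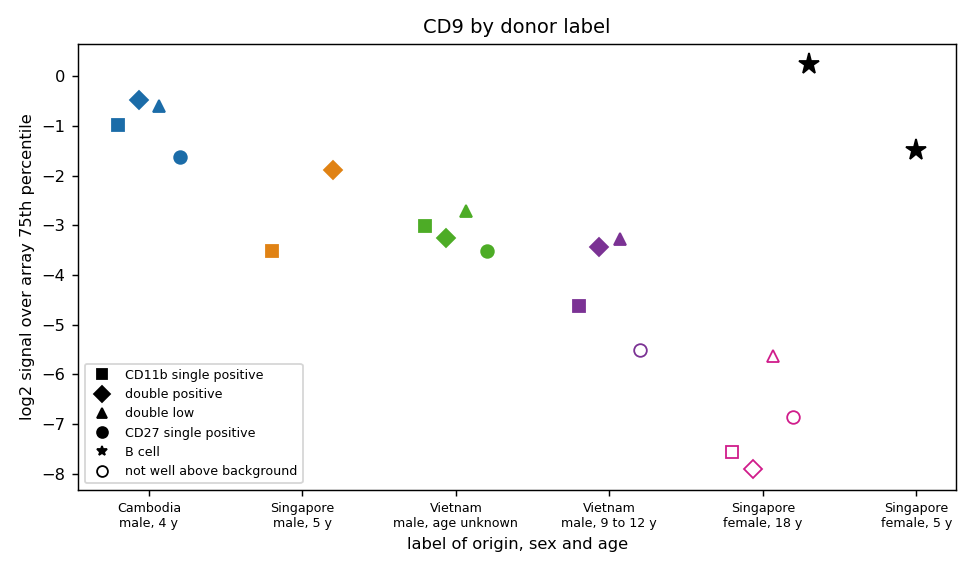
CD9 on each array, as log2 signal over the array's 75th percentile, grouped by label of origin, sex and age, with the subset as symbol and open symbols for arrays not well above background. The 4 NK arrays of the 18-year-old female label lie between -7.91 and -5.63 and are open, as is CD27 single positive replicate 3 at -5.51, while the B cell array of that label stands at 0.24.

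ITGA1, the collagen-binding integrin subunit, stood at -2.47, -2.81, -2.75, -3.44 and -2.84 in CD11b single positives and at -4.37, -2.32, -1.26, -2.75 and -4.20 in double positives. It stood at -2.66, -1.56, -2.38 and -0.71 in double-low cells, at -2.07, -2.15, -2.17 and -3.13 in CD27 single positives, and at -1.61 and -2.54 in B cells. All groups overlapped, and double positives again spread most. The nearest to a difference was double positives minus double-low cells, -1.15 ± 0.59 (limma, unadjusted p = 0.0642, adjusted p = 0.256). ITGB1, whose product pairs with that of ITGA1, averaged 2.14 ± 0.64 in CD11b single positives and 2.41 ± 1.61 in double positives (SD, 5 arrays each), with 2.11 ± 1.08 in double-low cells and 3.05 ± 1.03 in CD27 single positives (4 arrays each).

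CD101 stood at -0.25, -1.67, -0.76, -2.29 and -0.71 in CD11b single positives and at -1.99, -1.37, 0.89, -1.92 and -1.80 in double positives. It stood at -1.59, 0.97, -1.53 and -1.13 in double-low cells, at -2.13, -1.01, -0.87 and 0.65 in CD27 single positives, and at -2.52 and -1.82 in B cells. The 4 subset means lay between -1.24 and -0.82, closer than the SD within any subset. No pair of subsets differed by more than 0.42 ± 0.70 in size.

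Genes related by function were read from lists beside the 7. Of 10 other tissue residency genes that were measured, all 10 had negative differences in CD11b single positives minus CD27 single positives, with a median of -1.0002 and 0 called. NR4A2, a nuclear receptor induced by activation (-2.61 ± 0.77), and GPR183, an oxysterol receptor that positions lymphocytes in spleen (-2.45 ± 0.65), had the lowest F test p. Of 9 egress and recirculation genes, 8 had positive differences, with a median of 0.92 and 0 called. SELPLG, a selectin ligand, differed by 2.21 ± 0.53, and KLF3, a transcription factor, by 1.63 ± 0.87. S1PR1, named here as the partner of CD69, averaged -0.68 ± 0.90 in CD11b single positives and -1.61 ± 0.15 in CD27 single positives, a difference of 0.92 ± 0.58 (limma, adjusted p = 0.812). The 10 residency genes also had a median of -1.38 in double-low cells minus CD27 single positives, with 8 negative. In CD11b single positives minus double-low cells their median was 0.05, with 5 negative.

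Of 20 immediate early genes, 17 had negative differences in CD11b single positives minus CD27 single positives, with a median of -1.30 and 0 called. Such genes respond within minutes to stimulation or cell handling. DUSP5, a MAP kinase phosphatase, differed by -1.61 ± 0.36, and ZFP36, an mRNA decay factor, by -1.33 ± 0.40. In double-low cells minus CD27 single positives 19 of the 20 genes were negative, with a median of -1.22. In CD11b single positives minus double-low cells 15 were negative, with a median of -0.12. CD69 and NR4A2 are themselves induced early after activation. The part of such a response in the differences of the 7 genes was not tested.

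Most other families of the 7 genes showed no shift of that size in CD11b single positives minus CD27 single positives. The lectin-like genes came nearest, with a median close to the members' -0.85 without CRTAM. The 12 other RGS genes had a median of -0.15 with 8 negative, the 16 tetraspanins and partners 0.03 with 8 negative, and the 12 integrin subunits 0.46 with 5 negative. TSPAN2 (1.51 ± 0.51) and TSPAN13 (-2.13 ± 0.81), both tetraspanins, went opposite ways. The 8 nectin-like and related genes had a median of 0.39 with 2 negative, the 8 genes of the TGF-beta pathway 0.46 with 3 negative, and the 5 lectin-like genes from the region of CD69 -0.78 with 4 negative. None of these genes was called.

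**Figure D5:**
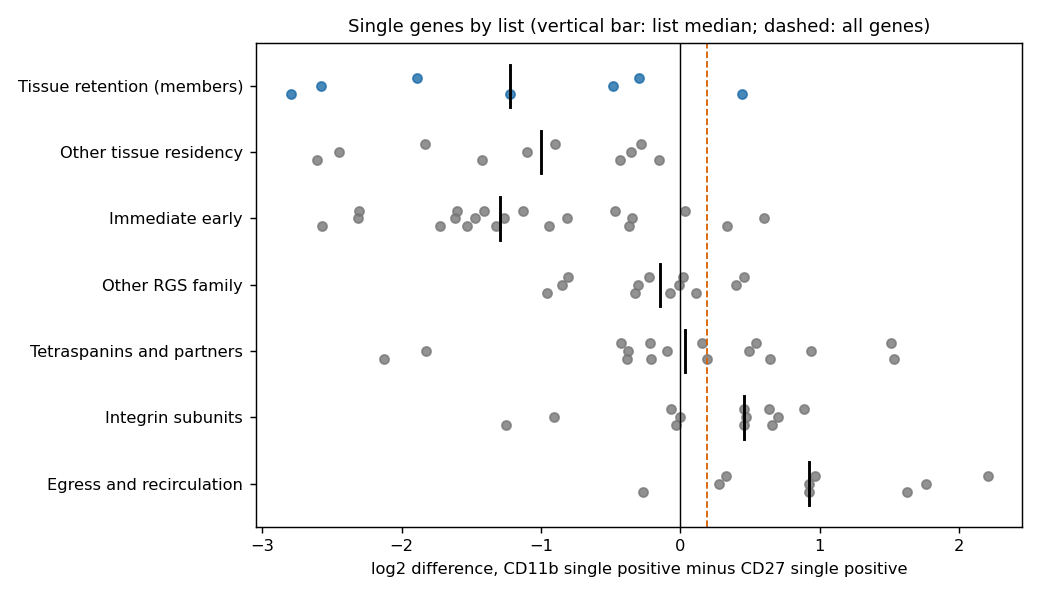
Each point is 1 gene's log2 difference, CD11b single positives minus CD27 single positives, by list, with a vertical bar at the list median and a dashed line at the median of all genes. The 7 members, the other residency genes and the immediate early genes have medians of -1.22, -1.0002 and -1.30, and the egress genes 0.92.

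Between NK and B cells these lists held a few called genes. RGS13, which lies between RGS1 and RGS2, fell by 5.94 ± 1.02 on the log2 scale in NK cells (limma, adjusted p = 0.00195), and RGS3 was higher by 2.63 ± 0.70 (adjusted p = 0.0478). HOPX, a homeodomain cofactor of cytotoxic lymphocytes, was higher by 6.55 ± 0.50, and KLRD1 and KLRB1, lectin-like NK receptors, by 6.67 ± 0.57 and 6.06 ± 0.66. TGFBR3 was higher by 4.56 ± 0.85 and TSPAN2 by 3.55 ± 0.56. TSPAN33 and GPR183 were lower in NK cells, with differences of -5.58 ± 0.85 and -4.10 ± 0.71.

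Markers of other cells moved with some of these groups. The summed level of 6 T cell markers was 1.99 to 12.7 times the 75th percentile in CD11b single positives, 2.81 to 11.3 in double positives, 2.82 to 8.17 in double-low cells, 7.03 to 11.9 in CD27 single positives and 0.626 to 0.975 in B cells. CD3D, CD6 and THEMIS were well above background on all 18 NK arrays and on both B cell arrays. TRAT1 was so on 18 NK and 0 B cell arrays, CD40LG on 17 and 2, and LEF1 on 16 and 1. Of the 6 T cell markers, 5 had negative differences between CD11b and CD27 single positives. Of 10 stromal and endothelial markers, 7 had positive differences, with sums of 4.02 to 7.10 in CD11b single positives and 2.78 to 4.78 in CD27 single positives. All 6 dendritic cell, all 6 platelet and all 5 erythroid markers tested also had positive differences there, with medians of 0.33, 0.45 and 0.64. Their sums overlapped between CD11b and CD27 single positives for each list, at 1.497 to 19.7 and 2.36 to 3.18 for dendritic cells, 5.999 to 15.8 and 5.62 to 7.27 for platelets, and 3.48 to 10.6 and 4.04 to 6.95 for erythroid cells. Of 8 B cell markers 7 were positive there (median 0.51), as were 6 of 9 monocyte and macrophage markers (0.34). So were 4 of 7 neutrophil (0.32) and 2 of 5 plasma cell markers (-0.27), against a median of 0.19 over all genes. Of 6 markers of other innate lymphoid cells, 4 had negative differences there. Their sums did not overlap, at 2.45 to 2.76 in CD11b single positives and 3.04 to 5.29 in CD27 single positives. CRTAM and CD69 are also carried by T cells. The part of T cells and of the other cell types in the differences was not tested.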

How the data were processed

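Per the labels' protocols, 50 ng of total RNA from sorted cells was amplified (Ovation Pico WTA V2), labelled with Cy3 and hybridised. The submitters' processing notes name Agilent Feature Extraction 10.7.1.1 and Partek. The intensity values used are the authors' deposited processed signals; the deposited log2 values of the series matrix, used as an alternative, have a median of 8.02 on every array, match log2 processed signal and are quantile-normalised, with the settings unknown. The 58659 probes on 58839 non-control spots were named by accession, and 20417 (34.8%) matched 12530 genes.

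Each array's log2 processed signal was reduced by that of its 75th percentile. Genes were represented by their brightest probe, kept where 4 or more of 18 NK arrays (2 of 20 with B cells) were well above background and valued on all arrays. limma 3.58.1 in R 4.3.3 (lmFit, eBayes with trend and robust) fitted the 18 NK arrays, or all 20 for NK against B cells. Adjusted p-values are Benjamini-Hochberg over all genes, with 0.05 as threshold. The script was tested on simulated data. The members and lists were chosen with earlier results of these data known. The genes named are the members, the 3 genes most like each member, and from each list the 2 of lowest F test p and those called; S1PR1, ITGB1 and CD27 were named for their roles. Some genes that this rule names are not reported here. Alternatives changed background correction, normalisation, source, filter, probe rule, slide, replicate number, donor label, weights, variance prior and each array. Mean signals were not used here, so normexp took the median signals. All p-values measure the spread between arrays, whose number limits precision.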

Additional observations from a re-analysis of the deposited data

Results flagged for a closer look

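In 28 groups of 4 or 5 arrays, the highest or lowest array was compared with its neighbour by Dixon's ratio, which chance passes in about 1 in 20 groups. Of these groups 2 passed. ITGA1 on CD27 single positive replicate 4 stood at -3.13, below the other 3 arrays at -2.17 to -2.07, and CD101 on double-positive replicate 3 stood at 0.89, above the other 4 at -1.99 to -1.37.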

How the results depend on the processing

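Besides leaving out arrays, 21 settings were tried, fits within single slides included. RGS1 kept its direction and its side of the threshold in 116 of 120 values, RGS2 and CRTAM in 115 of 120 each and CD69 in 113 of 120. Leaving out each array in turn moved CD11b minus CD27 single positives between -2.15 and -1.65 for RGS1, -3.18 and -2.28 for RGS2, -2.98 and -2.37 for CRTAM, and between -1.17 and -0.66 for the median without CRTAM. CRTAM in NK minus B cells stayed between 6.05 and 6.33 (limma, adjusted p from 1.84e-06 to 0.00544). Leaving out 1 array gave 0 to 1 called genes in CD11b minus CD27 single positives, 0 to 1 in double positives minus CD27 single positives, 0 to 4 in double positives minus double-low cells, 0 to 1 in the F test and 56 to 715 in NK minus B cells.

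Array weights called 4 genes in CD11b minus CD27 single positives, 40 in double-low cells minus CD27 single positives, 1 in CD11b single positives minus double-low cells, 3736 in double positives minus double-low cells, 131 in the F test and 5707 in NK minus B cells, with 3 members called there, against 1. CRTAM then passed the F test (adjusted p = 0.0448), and CD9 (-3.01) and CD101 (1.27) passed in NK minus B cells. Normexp called 1 gene in double positives minus CD27 single positives, 3 in double positives minus double-low cells and 3 in the F test. A slide block gave 598 in NK minus B cells, and leaving out the 18-year-old female label gave 60. Of the genes called between NK and B cells 213 of 362 were higher in NK cells, against 98 of 252 with normexp and 88 of 250 with quantile normalisation, where the median of all genes was 0.39 and 0.17. The stricter filter, which dropped CD9, gave -1.22 for the median without CRTAM in CD11b minus CD27 single positives. The causes were not tested.

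Within the first slide, CD101 became 0.61 in CD11b minus CD27 single positives, and in double positives minus double-low cells RGS1 became 0.32, RGS2 0.51 and CD69 0.74. Within the second slide, CD69 became 0.088 in CD11b minus CD27 single positives. ITGA1 became 1.39 and CD101 0.997 in double positives minus CD27 single positives, and RGS1 0.12 and CD101 -1.22 in double-low cells minus CD27 single positives. The second slide gave, in CD11b single positives minus double positives, 0.30 for RGS1, 0.28 for RGS2, 0.62 for CD69, 1.09 for CRTAM, -1.49 for ITGA1 and -1.64 for CD101, and the third slide gave 1.001 for RGS1 and 0.85 for CD69. The second slide also gave 0.20 for CD69 and 0.57 for CD101 in CD11b single positives minus double-low cells, and in double positives minus double-low cells -2.51 for CRTAM, 0.29 for ITGA1 and 2.22 for CD101. In NK minus B cells it gave -0.42 for RGS2 and 0.023 for ITGA1. Over all arrays, other differences turned sign under other settings. In CD11b minus CD27 single positives CD9 became -0.054 with the donor label and CD101 0.15 with the slide. In double positives minus CD27 single positives CD101 became 0.047 with the slide, and in double-low cells minus CD27 single positives -0.035 (quantile) and -0.036 (matrix). In CD11b single positives minus double positives ITGA1 became -0.072 (normexp), -0.30 (quantile) and -0.30 (matrix), and CD101 -0.11, -0.070 and -0.070, with -0.067 without the 2 dimmest arrays. In CD11b single positives minus double-low cells CD9 became 0.14 with the replicate block and CD101 0.13 with the slide. In double positives minus double-low cells RGS2 became 0.18 (weights), CD69 0.30 (weights) and 0.19 (donor label), CRTAM -0.19 (slide) and -0.058 (replicate block), CD101 0.025 (slide), and CD9 0.33 (quantile), 0.33 (matrix), 0.24 (slide) and 0.68 (replicate block). RGS2 in NK minus B cells became -0.26 with the slide. Leaving out each array in turn gave, in CD11b minus CD27 single positives, -0.39 to 1.36 for CD9 and -0.72 to 0.20 for CD101. CD101 ran from -0.93 to 0.10 in double positives and from -0.57 to 0.52 in double-low cells minus CD27 single positives. In CD11b single positives minus double positives RGS1 ran from -0.70 to 0.13, ITGA1 from -0.23 to 0.55, CD9 from -1.68 to 0.36 and CD101 from -0.12 to 0.63. In CD11b single positives minus double-low cells CD9 ran from -1.74 to 0.025 and CD101 from -0.57 to 0.28. In double positives minus double-low cells RGS2 ran from -0.69 to 0.090, CD69 from -0.30 to 0.22, CRTAM from -0.30 to 0.71, CD9 from -1.19 to 0.79 and CD101 from -0.95 to 0.18. In NK minus B cells RGS2 ran from -0.21 to 0.41 and ITGA1 from -0.91 to 0.027.

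Same-numbered arrays deviated together with a median r of 0.22 (from -0.30 to 0.41, over 0.1 in 17 of 25 pairs), against a median of -0.067 for other pairs (over 0.1 in 22 of 96). Pairs with the same donor label had a median r of 0.24 (over 0.1 in 14 of 19). Some same-numbered arrays carry unlike labels and not every such pair was over 0.1, so the numbers were not taken as pairs. The main fit took all arrays as independent. The replicate block called 422 genes in NK minus B cells and changed no other call.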
